A study of Mus musculus with 6 samples.

Results

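Beta-catenin, the protein complex that destroys it and the TCF factors it works with form the core of the WNT pathway, and 10 genes of this core were followed in RNA-seq libraries of a mouse model of WNT medulloblastoma. The 10 genes are Ctnnb1, Apc, Axin1, Gsk3b, Csnk1a1, Btrc, Tcf7, Tcf7l1, Tcf7l2 and Bcl9. They were picked by symbol, all 10 were present among 34591 gene rows, and all 10 were among the 16768 genes that passed the filter on low counts. The libraries came from mouse brain tumours. A hairpin against Ift88, which encodes part of the transport machinery that builds primary cilia, gives 3 of them their label sh2-Ift88 (from here on shIft88), and the other 3 carry the control label. The sources used here give neither the driver alleles, strain and age of the mice nor how the hairpin was delivered. They do not say either whether each library is a separate animal, so p-values measure only the spread between these libraries, which may be technical.

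In the absence of a WNT signal, beta-catenin is held by the scaffolds APC and axin, marked by the kinases casein kinase 1 alpha and GSK3 beta, and recognised by the ubiquitin ligase adaptor encoded by Btrc, after which it is degraded. When the signal is on or the complex is defective, beta-catenin accumulates, enters the nucleus and, with the adaptor BCL9, turns TCF and LEF factors from repressors into activators of WNT target genes. WNT medulloblastoma, a tumour of the dorsal hindbrain, is known for mutations that stabilise beta-catenin. Control of beta-catenin acts on the protein. Counts per gene give neither protein, nor phosphorylation, nor a mutant allele or exon. In the GENCODE annotation the genes lie on chromosomes 9 (Ctnnb1), 18 (Apc and Csnk1a1), 17 (Axin1), 16 (Gsk3b), 19 (Btrc and Tcf7l2), 11 (Tcf7), 6 (Tcf7l1) and 3 (Bcl9).

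TCF and LEF factors bind the short DNA core CTTTGAT, and the sequences just upstream of 2 of the 10 genes are shown beside that of Sp5, a WNT target whose upstream window holds this core. Ctnnb1 is shown as the most abundant of the 10 transcripts and Tcf7l2 as one of the pair, with Tcf7l1, whose highest library was more than 3 times its lowest. Each line gives the 250 bases before the first RefSeq start listed for the gene (build GRCm38.p6, not the build of the counts), 5′ to 3′ on the strand of the gene, with a match to the core in capitals.
Ctnnb1, chr9:120933150-120933399, plus strand: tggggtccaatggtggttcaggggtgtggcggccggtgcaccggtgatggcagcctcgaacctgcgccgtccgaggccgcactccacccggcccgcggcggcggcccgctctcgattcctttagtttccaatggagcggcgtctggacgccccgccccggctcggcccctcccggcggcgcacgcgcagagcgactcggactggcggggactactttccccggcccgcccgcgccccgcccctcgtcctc
Tcf7l2, chr19:55741560-55741809, plus strand: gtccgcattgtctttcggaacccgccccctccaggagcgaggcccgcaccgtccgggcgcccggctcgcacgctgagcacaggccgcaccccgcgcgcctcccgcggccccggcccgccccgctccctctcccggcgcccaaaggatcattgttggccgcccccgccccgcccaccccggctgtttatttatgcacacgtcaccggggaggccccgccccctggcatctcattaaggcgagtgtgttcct
Sp5, chr2:70474673-70474922, plus strand: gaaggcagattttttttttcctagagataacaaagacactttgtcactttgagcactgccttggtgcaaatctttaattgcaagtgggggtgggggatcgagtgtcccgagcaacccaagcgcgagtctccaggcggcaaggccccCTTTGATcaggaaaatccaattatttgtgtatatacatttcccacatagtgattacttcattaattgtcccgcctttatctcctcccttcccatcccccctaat
The core was searched on both strands. It was found in 0 of 9 such windows of the 6 members in the RefSeq table (Ctnnb1, Gsk3b, Tcf7, Tcf7l1, Tcf7l2 and Bcl9), in 2 of 14 windows of 9 WNT target genes outside the members, and in 3.21% of all 32851 windows. In Sp5 the match begins at position -104 from the start. Apc, Axin1, Csnk1a1 and Btrc are not shown.

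Gene counts summed to between 26802618 and 33772559 per library. Of 1249 rows of olfactory receptor genes, which brain tumours are not known to use, 564 had a read in shIft88 2, 387 in shIft88 3 and 492 in control 2, and the other 3 libraries had 24 to 38. The same 3 libraries had the highest shares of reads tallied as without a feature (31.9% to 39.5%, against 18.8% to 25.6%). In shIft88 3, 10 rows took 50.87% of all gene counts, against 13.87% to 19.85% elsewhere, and its scaling factor was 0.598. CPM are gene counts scaled to the summed counts of the tested genes in each library, multiplied by the scaling factor of that library. A factor below 1 therefore raises the CPM of a library above a scaling by depth alone. Ift88 itself was at 15.05 ± 0.859 CPM in libraries labelled shIft88 and 15.7 ± 3.47 CPM in controls (mean ± SD, n = 3 each). Its log2 fold change was -0.06 (standard error 0.27). No knockdown was therefore seen at the level of the targeted transcript, which does not bear out the labels. The comparisons below are between labels, not between libraries with a shown loss of Ift88. Of 11 markers of WNT tumours and hindbrain progenitors, 9 reached 1 CPM in at least 1 library. Among them the WNT inhibitor Wif1 did not fall below 1346 CPM in any library, and the hindbrain factor Zic2 was at 21.8 to 73.7 CPM. The other 2, the rhombic lip factors Atoh1 and Olig3, did not exceed 0.125 and 0.0625 CPM.

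None of the 10 genes passed the test between the groups, and for each the groups overlapped in CPM. With edgeR's quasi-likelihood test, 0 of 10 passed an adjusted p of 0.05 (the adjusted p of each was 0.9995), and 0.0% of all 16768 genes did. At an unadjusted p of 0.05 edgeR counted 0 of the 10 and 541 of all genes. DESeq2 and limma-voom also called 0 of the 10, and they called 75 and 0 of all genes. Log2 fold changes ran from -0.30 (Bcl9) to 0.49 (Tcf7l1), 6 above 0 and 4 below it, and their median was 0.053, against -0.012 over all genes tested. Scaled by library totals alone, which moved the median of all genes to -0.33, 2 of the 10 were above 0 and 8 below. In CPM, all libraries of one group lay above all libraries of the other for 0 of the 10. Of all genes tested, 8.39% had such a separation in either direction. Fewer cells of a type and less RNA per cell cannot be told apart in such bulk libraries.

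**Figure D1:**
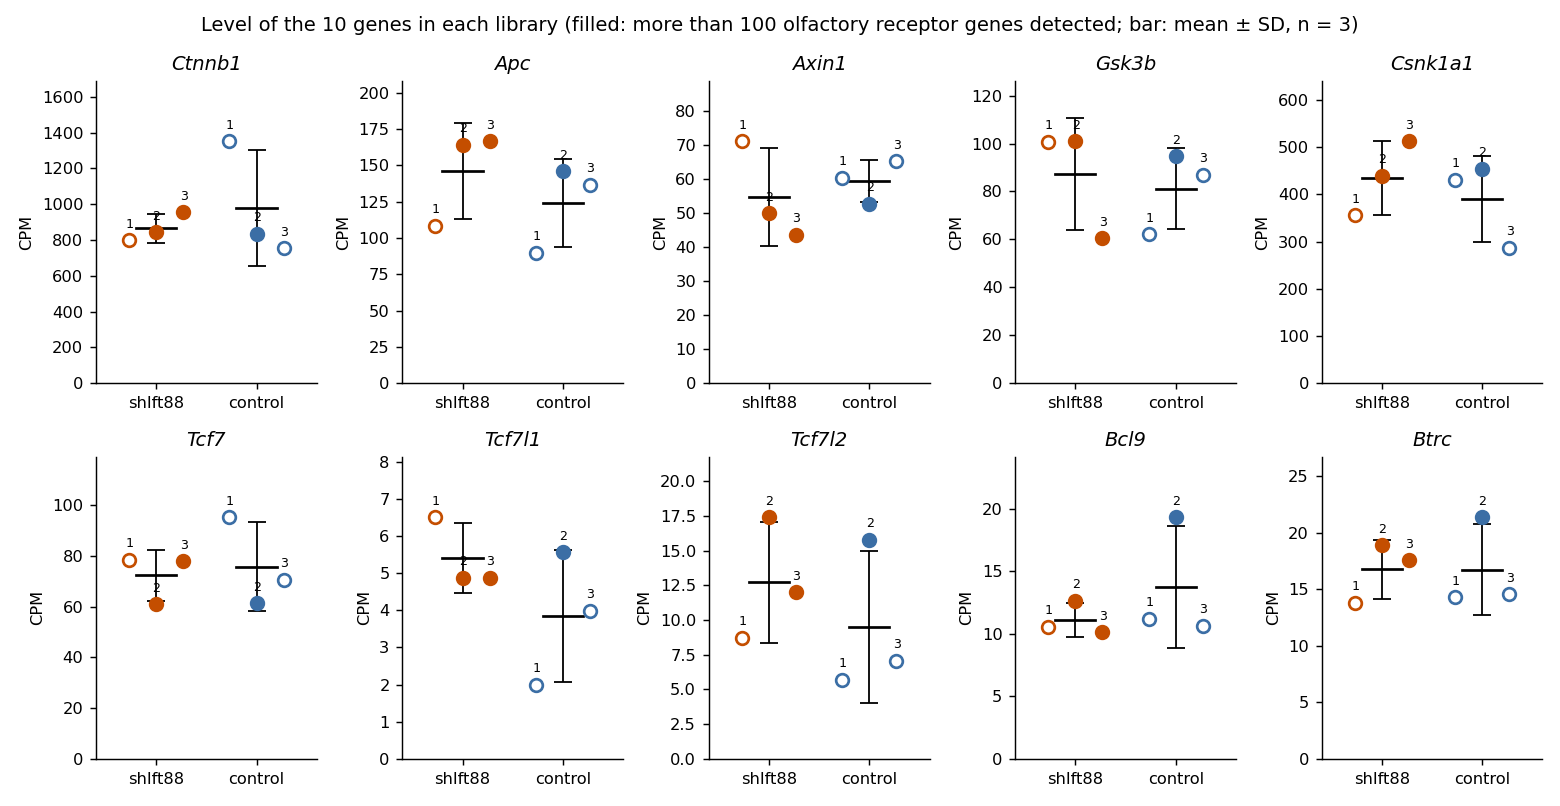
Level in CPM (linear axes from 0) of each of the 10 genes in the 3 libraries labelled shIft88 (orange, left) and the 3 controls (blue, right), numbered by library, with the mean and SD; filled points are the libraries with reads of more than 100 olfactory receptor genes. At this scaling the groups overlap in every panel. The filled points lie above the open ones for Apc, Csnk1a1, Tcf7l2 and Btrc and below them for Axin1.

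Ctnnb1, which encodes beta-catenin, was by far the most abundant of the 10 transcripts. Its level was 799, 842 and 955 CPM in libraries labelled shIft88 1, 2 and 3, against 1350, 836 and 753 CPM in control 1, 2 and 3. At this scaling control 1 stood apart at the top and the other 5 libraries lay between 753 and 955 CPM. The libraries labelled shIft88 fell inside the range of the controls. Its log2 fold change of -0.18 (standard error 0.33) had a 95% interval of 51.8% to 151% of the control level. Without control 1 the log2 fold change was 0.12, so at this scaling the direction rested on that library, and without control 3 it was -0.34. As a share of all gene counts, without the scaling factor, Ctnnb1 was at 0.0836%, 0.0919% and 0.0571% in libraries labelled shIft88. Controls were at 0.144%, 0.0922% and 0.0931%, so the groups did not overlap, and shIft88 3 was lowest. Library totals alone gave a log2 fold change of -0.50, which did not pass (edgeR's quasi-likelihood test, adjusted p = 0.92). How many of all genes separate in this way at that scaling was not counted.

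The fold changes of the 2 scaffolds of the destruction complex had opposite signs, each smaller than its standard error. Apc, the large scaffold whose loss activates the pathway in the gut, was at 108, 164 and 167 CPM in libraries labelled shIft88, against 89.9, 146 and 137 CPM in controls. Control 1 was lowest, shIft88 1 came next, and the groups overlapped (log2 fold change 0.24, standard error 0.29). Axin1, the scaffold that holds the kinases beside beta-catenin, was at 71.0, 49.9 and 43.5 CPM in libraries labelled shIft88, against 60.4, 52.8 and 65.2 CPM in controls. The libraries labelled shIft88 held both the highest and the lowest value (log2 fold change -0.12, standard error 0.26).

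The kinases and the ligase adaptor likewise overlapped between the groups. Gsk3b, the kinase that adds the degradation mark, was at 101, 101 and 60.5 CPM in libraries labelled shIft88, against 62.1, 94.6 and 86.9 CPM in controls. shIft88 3 and control 1 were low and the other 4 libraries lay between 86.9 and 101 CPM (log2 fold change 0.10, standard error 0.29). Csnk1a1, the priming kinase casein kinase 1 alpha, was at 356, 439 and 512 CPM in libraries labelled shIft88, against 431, 454 and 287 CPM in controls. Its lowest library was control 3 and its highest shIft88 3 (log2 fold change 0.16, standard error 0.30). Btrc, which binds the marked beta-catenin for the ligase, was at 13.8, 18.9 and 17.6 CPM in libraries labelled shIft88, against 14.3, 21.4 and 14.5 CPM in controls. Its group means were nearly equal (16.7 ± 2.63 CPM in libraries labelled shIft88 and 16.7 ± 4.01 CPM in controls), and the 95% interval of the fold still reached from 62.5% to 160% of the control level.

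Among the nuclear factors, Tcf7 was the most abundant per length and varied 1.57 times between its lowest and highest library, against 3.26 times for Tcf7l1 and 3.06 times for Tcf7l2. Tcf7, which encodes TCF1 and is itself a WNT target, was at 78.3, 60.8 and 77.8 CPM in libraries labelled shIft88, against 95.2, 61.3 and 70.6 CPM in controls. Control 1 was highest, as for Ctnnb1, and shIft88 2 and control 2 were lowest (log2 fold change -0.07, standard error 0.25). TCF1 also marks T lymphocytes. Of 8 T cell markers, 7 stayed below 1 CPM in every library, and all 8 summed to 1.44 to 1.94 CPM in libraries labelled shIft88 and 0.964 to 2.47 CPM in controls.

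Tcf7l1, encoding TCF3, a factor known mainly as a repressor in stem cells, was at 6.51, 4.87 and 4.87 CPM in libraries labelled shIft88, against 2.0, 5.56 and 3.98 CPM in controls. These levels rested on 230, 145 and 78 reads in libraries labelled shIft88 and 66, 171 and 161 reads in controls. Control 1 stood alone at the bottom, and the fold was imprecise (log2 fold change 0.49, standard error 0.49, 95% interval 63.3% to 314% of the control level). Leaving out 1 library at a time gave log2 fold changes from 0.18 (without control 1) to 0.85 (without control 2).

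Tcf7l2, encoding TCF4, which is known in the brain from thalamic neurons and from cells of the oligodendrocyte lineage, was at 8.71, 17.4 and 11.99 CPM in libraries labelled shIft88, against 5.69, 15.8 and 7.05 CPM in controls. shIft88 2 and control 2 were highest (log2 fold change 0.42, standard error 0.48). Leaving out 1 library at a time gave 0.12 without shIft88 2, 0.15 without control 1, 0.24 without control 3, 0.99 without control 2 and 0.43 to 0.61 without either of the others. None of these passed the threshold, and the smallest unadjusted p among them was 0.0719 by edgeR (adjusted p = 0.999, without control 2). Of the oligodendrocyte markers, Olig2 did not exceed 0.44 CPM and Sox10 did not exceed 0.77 CPM, and the 8 markers of the list summed to 279 to 650.0 CPM in libraries labelled shIft88 and 346 to 652 CPM in controls, mostly Pdgfra. The 10 markers of mature neurons summed to 191, 157 and 19.5 CPM in libraries labelled shIft88 and to 56.4, 148 and 444 CPM in controls. The part of either cell type in the level of Tcf7l2 was not tested.

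Bcl9, the adaptor that links beta-catenin to its co-activators, was at 10.6, 12.6 and 10.1 CPM in libraries labelled shIft88, against 11.2, 19.3 and 10.6 CPM in controls. Control 2 was high and the other 5 libraries lay between 10.1 and 12.6 CPM. The log2 fold change of -0.30 (standard error 0.34) became 0.020 without control 2 and -0.46 without control 3.

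**Figure D2:**
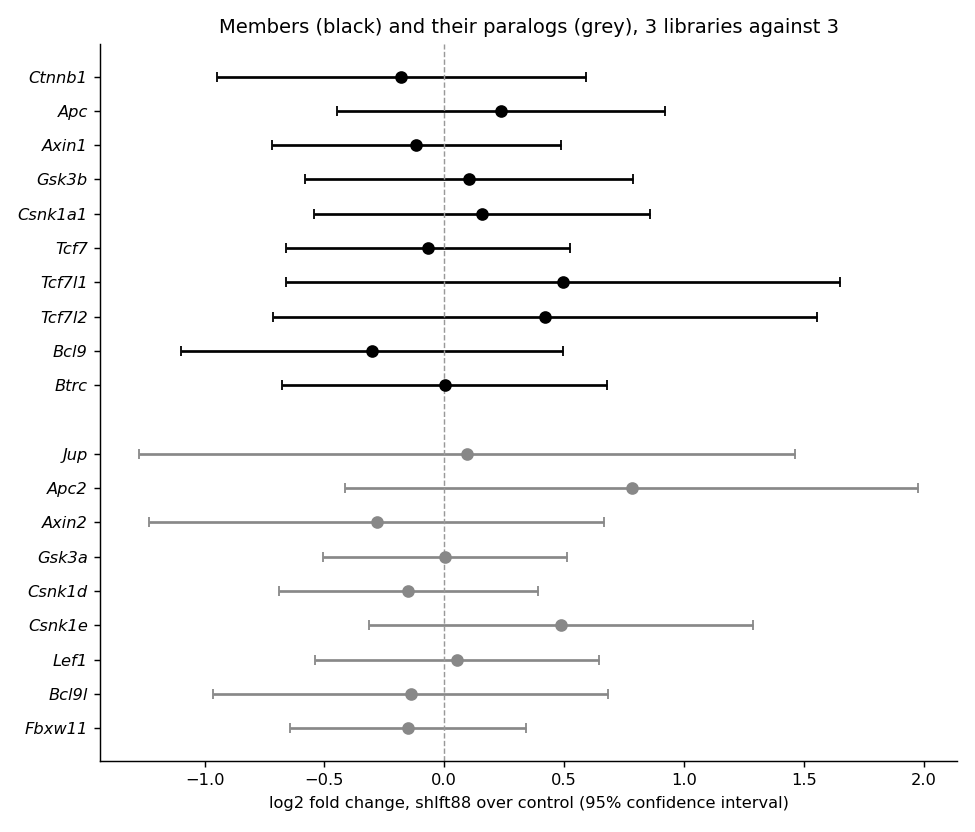
Log2 fold change (horizontal axis, shIft88 over control, n = 3 each) with its 95% confidence interval for the 10 members (black, upper) and 9 paralogs (grey, lower). Every interval includes 0, and those of Tcf7l1 and Tcf7l2 are the widest of the 10 members.

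Divided by the summed exon length of each gene in the GENCODE annotation, levels can be set against each other. Ctnnb1 averaged 178 CPM per kb of exon over the 6 libraries, with no overlap with the next gene, Csnk1a1 (39.3 CPM per kb). Tcf7 followed at 28.2 CPM per kb, below Csnk1a1 in each of the 6 libraries although their ranges overlapped. Axin1 averaged 14.9 CPM per kb, separate from the genes on either side of it. Gsk3b (8.57 CPM per kb) and Apc (8.40 CPM per kb) did not separate. Bcl9, Tcf7l2, Tcf7l1 and Btrc formed a low set between 0.99 and 1.47 CPM per kb whose neighbours overlapped. Within that low set the order depended on the length used: with the longest transcript, Btrc ranked 7 and Tcf7l1 ranked 10 of the 10 genes.

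The make-up of the TCF and LEF transcripts overlapped between the groups, with Tcf7 as the main transcript per kb of exon in each library. How far Tcf7 led Lef1 depended on the length used. Per kb of the longest transcript Tcf7 averaged 29.95 CPM and Lef1 21.96 CPM. Not divided by length, Tcf7 averaged 74.0 CPM and Lef1 80.3 CPM. Per kb of exon, Tcf7 supplied 74.0%, 67.6% and 66.7% of the summed level of the 4 family genes in libraries labelled shIft88, against 77.3%, 65.4% and 72.8% in controls. Lef1, the fourth member of the family and a WNT target, supplied 19.5%, 23.0% and 27.4% in libraries labelled shIft88, against 20.3%, 25.6% and 22.3% in controls. Tcf7l1 supplied 2.80% to 4.11% in libraries labelled shIft88 and 1.09% to 3.96% in controls, and Tcf7l2 supplied 2.46% to 5.79% in libraries labelled shIft88 and 1.38% to 5.03% in controls. For each of the 4 shares the groups overlapped, the group means differed by -2.38 (Tcf7), 0.91 (Tcf7l1), 0.91 (Tcf7l2) and 0.56 (Lef1) percentage points, and the two-sided exact permutation test gave p from 0.4 to 0.9 (adjusted p = 0.9 over the 4). With 3 libraries against 3 that test cannot go below 0.1.

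**Figure D3:**
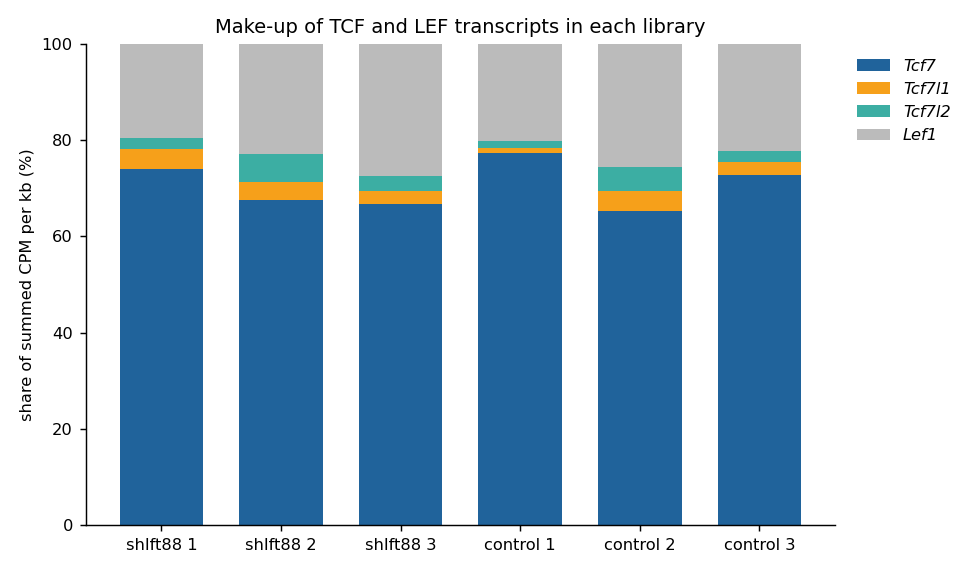
Share (vertical axis, % of the summed CPM per kb of exon) of Tcf7, Tcf7l1, Tcf7l2 and Lef1 in each library, with libraries labelled shIft88 on the left and controls on the right. Tcf7 takes 65.4% to 77.3% and Lef1 most of the rest in each library.

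Most members have a close paralog, and the 9 paralogs did not pass the threshold either (0 of 9). Lef1 was at 81.7 ± 21.9 CPM in libraries labelled shIft88 and 78.8 ± 5.80 CPM in controls. Axin2, the WNT-induced counterpart of Axin1, was at 398 ± 98.9 CPM in libraries labelled shIft88 and 484 ± 243 CPM in controls, with control 1 highest at 764 CPM. Jup, plakoglobin, the junctional relative of beta-catenin, was at 85.6 ± 35.6 CPM in libraries labelled shIft88 and 80.1 ± 59.0 CPM in controls. Csnk1e was at 148 ± 65.7 CPM in libraries labelled shIft88 and 106 ± 18.6 CPM in controls, and its relative Csnk1d was at 125 ± 3.82 CPM in libraries labelled shIft88 and 138 ± 27.9 CPM in controls. Gsk3a, the other GSK3 kinase, was at 36.5 ± 4.18 CPM in libraries labelled shIft88 and 36.4 ± 3.08 CPM in controls, and Fbxw11, the relative of Btrc, at 97.6 ± 1.24 CPM in libraries labelled shIft88 and 108 ± 14.7 CPM in controls. Bcl9l was at 14.8 ± 5.26 CPM in libraries labelled shIft88 and 16.3 ± 3.67 CPM in controls.

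The balance within 5 pairs of paralogs was set on the log2 scale, per length. Apc exceeded Apc2, a relative found mainly in neurons, by a log2 ratio of 2.08, 1.87 and 2.31 in libraries labelled shIft88, against 3.61, 2.37 and 2.45 in controls. Of the 5 ratios this was the 1 whose groups did not overlap. Any such separation gives the smallest p that the exact permutation test allows (0.1, adjusted p = 0.5 over the 5). In CPM, 8.39% of all genes tested separated in either direction, and the share over other ratios was not counted. The mean difference of -0.72 shrank to -0.32 without control 1, the library with the highest ratio, where Apc2 was at 5.15 CPM. Apc2 was at 17.9, 31.6 and 23.5 CPM in libraries labelled shIft88 (24.3 ± 6.87 CPM). In controls it was at 5.15, 19.8 and 17.6 CPM (14.2 ± 7.88 CPM, log2 fold change 0.78, standard error 0.51). The neuron marker sums given with Tcf7l2 also differed between libraries, and their part in this ratio was not tested. The other 4 differences lay between -0.08 (Bcl9 over Bcl9l) and 0.16 (Btrc over Fbxw11), with exact permutation p of 0.8 to 1. In every library the log2 ratio of Axin1 to Axin2 was below 0 (from -3.14 to -1.65), and so was that of Btrc to Fbxw11 (from -5.03 to -4.08). The size of the latter depended on the length used. Btrc and Fbxw11 averaged 0.99 and 23.8 CPM per kb of exon, and 3.55 and 25.6 CPM per kb of the longest transcript.

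In CPM, several members went with the split between libraries with and without reads of olfactory receptor genes and none with the groups. In the 3 libraries with such reads, Tcf7l2 was at 11.99 to 17.4 CPM, against 5.69 to 8.71 CPM in the other 3. Apc was at 146 to 167 CPM, against 89.9 to 137 CPM. Csnk1a1 was at 439 to 512 CPM, against 287 to 431 CPM. These 3 genes and Btrc (17.6 to 21.4 CPM, against 13.8 to 14.5 CPM) had all 3 libraries with such reads on top, as 5.65% of all genes tested had. Axin1 had them at the bottom (43.5 to 52.8 CPM, against 60.4 to 71.0 CPM), as 5.04% of all genes had. So in CPM 5 of the 10 genes separated along this split and 0 of 10 along the groups. The 4 genes with these libraries on top rested on the scaling factor of shIft88 3 (0.598). That library held 2666, 8200, 192 and 281 reads of Apc, Csnk1a1, Tcf7l2 and Btrc among 26802618 gene counts. In shIft88 1 there were 3827, 12576, 308 and 488 among 33772559, a higher share for each. As a share of gene counts, Ctnnb1 separated along the groups, narrowly, with shIft88 2 at 0.0919% and control 2 at 0.0922%. How many of all genes separate along the groups on that scale was not counted. The part of the olfactory receptor reads in the levels was not tested. Each set holds libraries of both groups. Within the 3 libraries with such reads, where control 2 stands alone, the log2 fold change of Tcf7l2 was -0.11 and that of Tcf7l1 was -0.20. Within the other 3 libraries, where shIft88 1 stands alone, that of Tcf7l2 was 0.41 and that of Tcf7l1 was 1.08.

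Around the 10 genes, 0 of 94 tested pathway genes in 6 lists (96 listed) passed the threshold. Of these, 43 had fold changes above 0 and 51 below it, with a median log2 fold change of -0.022. Among adhesion partners of beta-catenin 2 of 10 were above 0 and 8 below (median -0.25). The cadherin Cdh11 was at 1782 ± 47.6 CPM in libraries labelled shIft88 and 1790.1 ± 779 CPM in controls, and alpha-catenin, Ctnna1, was at 345 ± 69.8 CPM in libraries labelled shIft88 and 319 ± 143 CPM in controls. Among helpers of the destruction complex, such as phosphatase subunits and tankyrases, 12 of 23 were above 0 (median 0.062). The ligase subunit Skp1a was at 492 ± 97.0 CPM in libraries labelled shIft88 and 415 ± 153 CPM in controls, and the deubiquitinase Usp34 was at 281 ± 73.3 CPM in libraries labelled shIft88 and 258 ± 63.3 CPM in controls.

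Upstream of the complex, 6 of 15 dishevelled and receptor genes were above 0 (median -0.17). The receptor Fzd1 was at 131 ± 39.9 CPM in libraries labelled shIft88 and 211 ± 127 CPM in controls, and the receptor Fzd7 was at 113 ± 42.8 CPM in libraries labelled shIft88 and 131 ± 48.8 CPM in controls. Among co-factors of TCF 14 of 23 were above 0 (median 0.033). The co-repressor Tle1 was at 226 ± 43.9 CPM in libraries labelled shIft88 and 226 ± 42.9 CPM in controls, and the chromatin remodeller Smarca4 was at 165 ± 42.7 CPM in libraries labelled shIft88 and 161 ± 16.2 CPM in controls.

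None of the target genes of the pathway passed the test either (0 of 17, Tcf7 and Lef1 included). Of the 17, 5 had fold changes above 0 and 12 below it (median -0.28). Wif1 was at 2435 ± 667 CPM in libraries labelled shIft88 and 1765 ± 433 CPM in controls, and Apcdd1, a membrane-bound inhibitor of WNT, was at 628 ± 89.4 CPM in libraries labelled shIft88 and 825 ± 406 CPM in controls. Control 1, the library with most Ctnnb1 and Tcf7, was the highest library for 7 of 16 targets other than Tcf7, and for 17.8% of all genes tested. It was also the lowest library for 3 of the 16 targets (Myc, Lgr5 and Dkk1) and for 17.6% of all genes, and among the 10 members for Apc, Tcf7l1 and Tcf7l2. Control 3 was highest for 5 of the 16 targets and for 23.0% of all genes, and lowest for 5 of the 16 and for 24.5% of all genes.

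**Figure D4:**
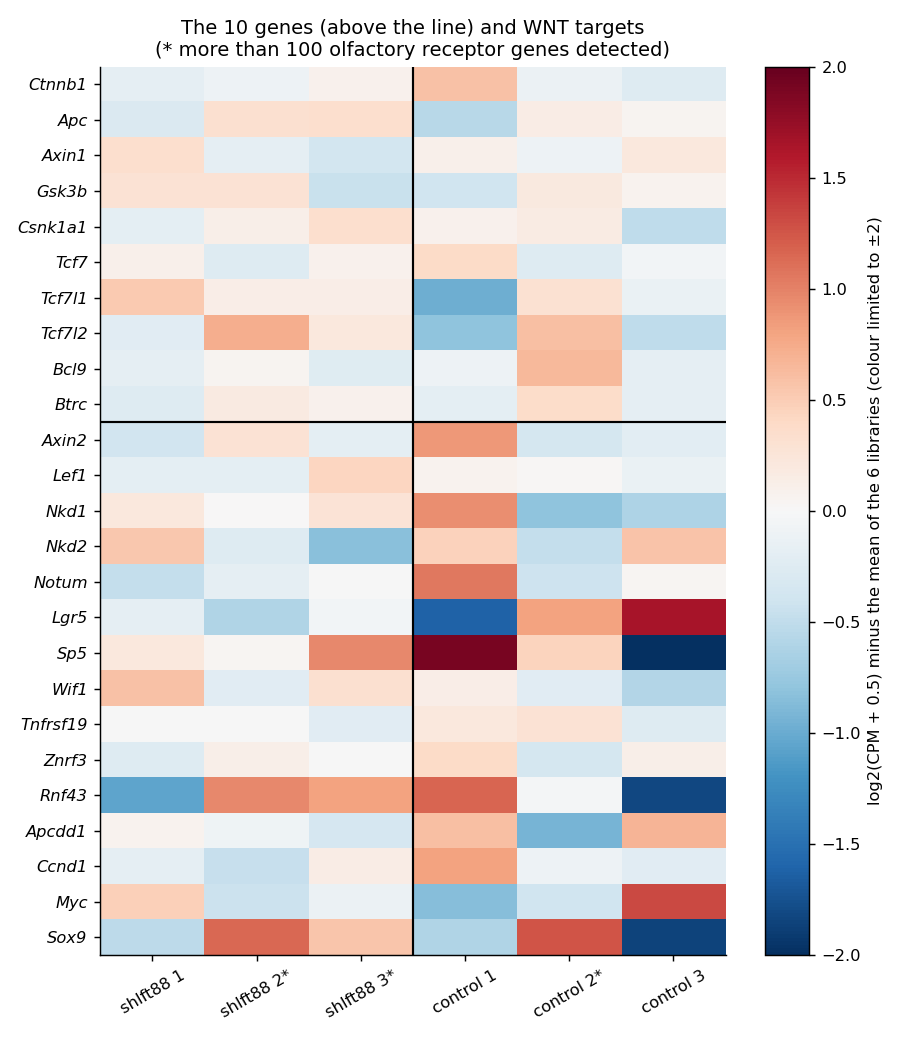
Deviation of each gene in each library from its mean over the 6 libraries, on the log2(CPM + 0.5) scale (red higher, blue lower, colours limited at ±2), for the 10 members above the line and WNT targets with a mean of at least 1 CPM below it; libraries labelled shIft88 are left of the vertical line and controls right of it. Control 1 is red for Ctnnb1, Tcf7, Axin2, Nkd1, Notum and Sp5 and blue for Apc, Tcf7l1, Tcf7l2, Lgr5 and Myc.

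The genes whose levels ran most like those of the widest-ranging members were found by the root mean square difference of log2(CPM + 0.5), each centred on its mean over the 6 libraries, among 14767 genes. Closest to Tcf7l2 were Pcyt1b (0.12), Ankrd42 (0.13) and Ttc25 (0.15). Pcyt1b was at 3.90, 8.23 and 5.37 CPM in libraries labelled shIft88 and 2.76, 7.38 and 4.03 CPM in controls, with shIft88 2 and control 2 on top as for Tcf7l2. Closest to Tcf7l1 were Zic2 (0.14), Arid5b (0.14) and Zfp423 (0.15). The hindbrain transcription factor Zic2 was at 73.7, 48.1 and 47.7 CPM in libraries labelled shIft88 and 21.8, 68.3 and 46.9 CPM in controls, with control 1 alone at the bottom as for Tcf7l1. These genes were picked for likeness over the same 6 libraries, so sharing the highest or lowest libraries follows from the choice. How close the nearest genes of other genes lie was not computed.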

How the data were processed

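Gene counts of 6 total-RNA libraries were used, 3 labelled shIft88 and 3 controls, grouped by the sample descriptions. BWA and the mouse build mm9 come from the submitters' processing notes, and the TruSeq Stranded Total RNA kit was used per the labels' protocols. The authors deposited 1 table of raw, whole-number counts for each library. The sources used here do not give the counting program, its strand setting or the annotation, so rows of overlapping genes or copies may share reads. Of each table, 5 tallies were left out: reads without a feature (18.8% to 39.5% of all), ambiguous (0.876% to 4.37%) and not aligned (2.93% to 10.2%), and 2 at 0. Total counts ran from 26802618 to 33772559.

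Genes were kept with filterByExpr and tested with edgeR 4.0.16 in R 4.3.3 (TMM, glmQLFit with robust=TRUE, glmQLFTest, two-sided, Benjamini-Hochberg over 16768 genes at 0.05). The test was also run on simulated counts built from the mean levels and library sizes of these data. CPM use the TMM-scaled library sizes. Exon lengths came by symbol from GENCODE M21 (a later build than the counts), used for lengths only. Shares and ratios were tested with two-sided exact permutation tests (SciPy 1.17.1). Alternatives were other scalings and filters, DESeq2 1.42.0, limma-voom 3.58.1, a covariate marking libraries in which over 100 olfactory receptor genes were detected and leaving out each library. Values within the 2 sets of libraries, marked and not marked in this way, were added after seeing the data. The members and lists were chosen with earlier results of these data known. Named genes were the members, their 9 paralogs, Ift88, the 2 genes of highest mean CPM per other list and, for the 2 widest-ranging members, their 3 nearest genes. Others were chosen after their values were seen.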

Additional observations from a re-analysis of the deposited data

How the results depend on the processing

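The number of the 10 genes called was 0 under each of the 15 alternatives. Over all genes, edgeR without a filter called 6 (5 higher, 1 lower in libraries labelled shIft88) and DESeq2 called 75 (58 higher, 17 lower), and the other 13 called 0. Several fold changes turned direction, and the cause was not tested. On the log2 scale, Btrc became -0.022 with DESeq2 size factors, -0.0401 without a filter and -0.0401 with DESeq2. Library totals alone, which moved the median of all genes to -0.33, gave Apc -0.12, Gsk3b -0.14, Csnk1a1 -0.18 and Btrc -0.32. A term for the libraries with olfactory receptor reads gave Axin1 0.0012, Tcf7 0.047 and Btrc -0.15. Within the libraries with such reads (chosen after seeing the data, 1 control) the values were Ctnnb1 0.094, Gsk3b -0.24, Tcf7 0.17, Tcf7l1 -0.20, Tcf7l2 -0.11 and Btrc -0.24. Within the other 3 (1 labelled shIft88) they were Apc -0.11, Axin1 0.14, Csnk1a1 -0.044 and Btrc -0.10, and the median of all genes was -0.11. The lone library of an arm is assumed to vary like the others. Leaving out each library gave ranges of -0.34 to 0.12 (Ctnnb1), 0.05 to 0.39 (Apc), -0.37 to -0.0092 (Axin1), -0.058 to 0.28 (Gsk3b), -0.028 to 0.27 (Csnk1a1), -0.20 to 0.13 (Tcf7), 0.18 to 0.85 (Tcf7l1), 0.12 to 0.99 (Tcf7l2), -0.46 to 0.020 (Bcl9) and -0.10 to 0.21 (Btrc). The differences in share ranged from -5.61 to 0.35 percentage points (Tcf7), 0.16 to 1.596 (Tcf7l1, without control 1 and without control 2), -0.091 to 1.999 (Tcf7l2) and -1.52 to 2.47 (Lef1), and that of Lef1 was -0.072 on CPM not divided by length. The differences in log2 ratio ranged from -0.94 to -0.32 (Apc over Apc2), -0.31 to 0.30 (Axin1 over Axin2), -0.13 to 0.36 (Gsk3b over Gsk3a), -0.35 to 0.11 (Bcl9 over Bcl9l) and -0.020 to 0.45 (Btrc over Fbxw11). No paired analysis was possible because the labels give no replicate numbers. Libraries are numbered in accession order, which pairs none of them. With 3 libraries a group, Tcf7l1 and Tcf7l2 had the widest intervals of the 10 genes, and Tcf7l1 rested on as few as 66 reads in a library.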

Other observations

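Of the 94 tested pathway genes outside the 10 members, 3 had an unadjusted p under 0.05 in edgeR's quasi-likelihood test, and 541 of all 16768 genes did. These 3 were chosen after their values were seen, and none passed the adjustment (adjusted p = 0.9995 for each). The WNT receptor gene Fzd5 was at 8.40, 9.95 and 8.31 CPM in libraries labelled shIft88, against 13.7, 25.7 and 19.7 CPM in controls, and was lower in 3 of 3 libraries (log2 fold change -1.15, standard error 0.32). Rnf146, a ubiquitin ligase that promotes the degradation of axin, was at 61.3, 34.0 and 58.7 CPM in libraries labelled shIft88, against 33.2, 28.5 and 32.9 CPM in controls (log2 fold change 0.70, standard error 0.28). Cdh1, which encodes E-cadherin, was at 1.4996, 1.21 and 1.999 CPM in libraries labelled shIft88, against 0.787, 0.618 and 0.692 CPM in controls (log2 fold change 1.16, standard error 0.49). Over all 94 genes, the groups did not overlap for 8 (5 higher and 3 lower in libraries labelled shIft88), beside 8.39% of all genes tested.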
